A study of Mus musculus with 8 samples.

Results

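The cell lines m5567 and m8905 were grown from separate mammary tumors of mice of a single genotype, NIC/c-Src+/+, and were compared with each other by RNA-Seq. They supplied 4 of the 8 samples of the series, with 2 biological duplicates per line, and the other 4 samples came from lines m4447 and m9327 of the genotype NIC/c-SrcL/L, in which the conditional Src alleles were targeted. Samples were chosen by the line named in their labels, and genes by a mean FPKM that reached 0.5 over the 8 samples, which left 12673 of 39993 listed genes. FPKM is the number of fragments counted on a gene relative to the gene's length and to the total of the library. The lowest mean that was kept was 0.500349 FPKM and the highest that was left out was 0.499970 FPKM. In NIC mice the mammary epithelium expresses activated ErbB2 together with Cre recombinase from a single transgene, so that all 4 lines carry the ErbB2 oncogene and Cre, and the lines differ by genotype in the Src alleles alone as far as the labels tell. All lines were used between passages 10 and 15. Each line comes from a single tumor, so the values below describe these lines and not tumors of the genotype at large.

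ErbB2 is a receptor tyrosine kinase of the epidermal growth factor receptor family, and its overexpression drives a class of human breast cancers. c-Src is a cytoplasmic tyrosine kinase that acts downstream of such receptors. Tumors that arise from the same transgene in separate animals are independent events, and lines grown from them can differ in expression where the engineered alleles are the same. The comparison of lines of the same genotype therefore measures how far ErbB2 tumor lines lie apart without a difference in Src, and the c-Src-deficient lines can then be placed on the same scale. The deposited identifiers are those of the FVB/NJ annotation and are not paired with gene names, and 0 of 39993 were found in the reference tables used here. For this reason Src itself, epithelial and other cell type markers, and pathways were not analysed here, and genes are described by their levels, their lengths and the order of their identifiers.

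The totals of the libraries were solved from their values as 15231180 and 15808372 reads in m5567 and 17773742 and 14069716 for m8905. For a gene of 1 kb in length, 1 read was worth 0.0656 and 0.0633 FPKM in the m5567 libraries and 0.0563 and 0.0711 FPKM in the m8905 libraries. At this depth 11349 and 11370 genes reached 1 FPKM in m5567, against 11340 and 11448 in m8905. The duplicates of each line were close to each other, but they differed by more than counting error. Over the 10481 genes with at least 100 reads in the duplicates of m5567 together, the median chi-square of the read numbers was 1.01, and over 10530 such genes in m8905 it was 1.30, where counting error alone gives 0.455. No library was therefore treated as a repeat of another. Whether the duplicates were separate cultures or only separate extractions is not given in the sources used here, so p-values measure the spread between duplicates, which may be technical.

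The NIC/c-Src+/+ lines differed from each other by clearly more than their duplicates did. The median absolute difference on the log2(FPKM + 1) scale was 0.09 between the duplicates of m5567 and 0.10 between those of m8905. Between a library of m8905 and a library of m5567 it was 0.21 in 3 of the 4 possible pairs and 0.23 in the pair of m8905 duplicate 2 and m5567 duplicate 1. Duplicates of m5567 were at least 2-fold apart in 65 genes and those of m8905 in 64 genes, which is 0.513% and 0.505% of the genes tested. Across lines the number lay between 671 and 708 genes, or 5.29% to 5.59%. The c-Src-deficient lines lay still further apart from each other, with between 1434 and 1542 genes at least 2-fold apart in the 4 pairs of an m9327 with an m4447 library, while their duplicates differed 2-fold in 69 and 77 genes. By the median absolute difference their duplicates were also further apart, at 0.16 in m4447 and 0.13 in m9327, against 0.32 to 0.35 between these lines. Most of the highly expressed genes were the same in both NIC/c-Src+/+ lines, since 92 of the 100 genes with the highest FPKM in m5567 were also among the 100 highest in m8905.

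**Figure D1:**
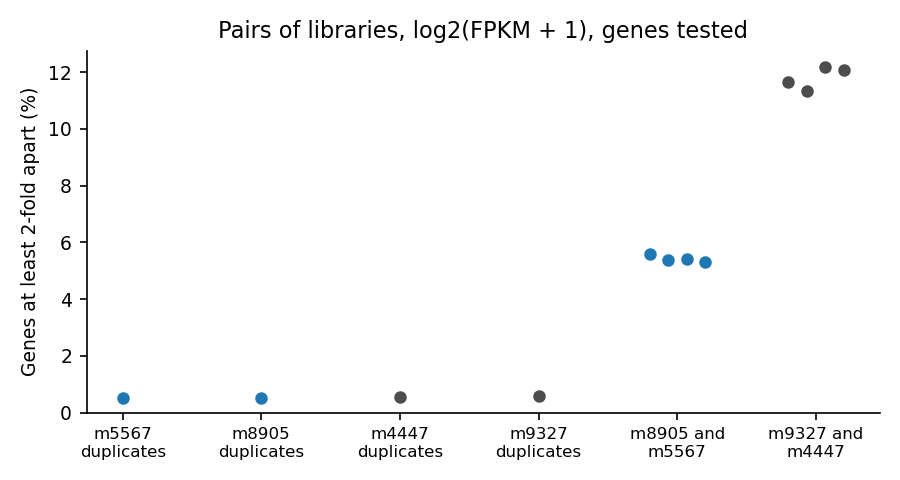
Percentage of the 12673 genes tested that were at least 2-fold apart on the log2(FPKM + 1) scale, for each pair of duplicates and for each of the 4 pairs of libraries from different lines of the same genotype (blue, NIC/c-Src+/+; grey, NIC/c-SrcL/L). Duplicates lie between 0.505% and 0.608%, the NIC/c-Src+/+ lines between 5.29% and 5.59%, and the NIC/c-SrcL/L lines between 11.3% and 12.2%.

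Differences between the lines were tested gene by gene with limma, in a fit of the 8 libraries with the line as the factor, so that the 4 pairs of duplicates shared an estimate of the spread. At an adjusted p-value under 0.05 (Benjamini-Hochberg over the 12673 genes), 3029 genes differed between m8905 and m5567, which is 23.9% of the genes tested. The differences were split evenly by direction, with 1514 genes higher in m8905 (11.9%) and 1515 lower (12%). The median log2 difference of all genes tested was -0.01. In the same fit 5983 genes differed between m9327 and m4447, which is 47.2%. The duplicates of these lines varied more, with a median chi-square of 3.31 in m4447 and 2.05 in m9327, against 1.01 in m5567 and 1.30 in m8905. A shared spread favours calls in the pair whose duplicates vary more, so the shares of calls are not like for like. In a fit of only the 4 NIC/c-Src+/+ libraries, 1721 genes were higher and 1690 lower in m8905. Most differences between the NIC/c-Src+/+ lines were small. The median log2 difference was 0.59 among the genes higher in m8905 and -0.59 among those lower, and 1220 of the higher genes (80.6%) and 1198 of the lower genes (79.1%) were less than 2-fold apart. In all 3029 genes the libraries of the higher line lay above both libraries of the other line, as they did in 68.1% of all genes tested. An exact two-sided permutation test of a single gene with 2 libraries against 2 has 0.333 as its smallest possible p, and the adjusted values draw on the spread that limma shares across genes. The number of calls fell when a library of either NIC/c-Src+/+ line was left out. Without duplicate 1 or duplicate 2 of m5567 the counts were 906 and 906 higher and 882 and 924 lower genes, and without duplicate 1 or duplicate 2 of m8905 they were 928 and 907 higher and 1027 and 873 lower genes. Leaving out a library of m4447 or m9327 changed the counts less, to between 1458 and 1680 higher and between 1465 and 1677 lower genes.

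With a minimum of 2-fold beside the test, 611 genes differed (4.82% of those tested), of which 294 were higher in m8905 (2.32%) and 317 lower (2.5%). In the c-Src-deficient pair 1398 genes passed the same rule (11%). Among the genes past the threshold, the smallest absolute log2 difference that was counted was 1.003 and the largest that was not was 0.9996. Large differences were few. At least 4-fold apart were 57 genes higher and 49 genes lower in m8905, and at least 8-fold apart were 16 and 18. A further 20 genes were at least 2-fold apart but did not pass the test. Tested against a 2-fold difference in place of 0, by limma's treat, 96 genes were higher and 96 lower. The fold rule also depends on the scale at low levels, and with a pseudocount of 0.1 in place of 1 it gave 481 higher and 482 lower genes.

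**Figure D2:**
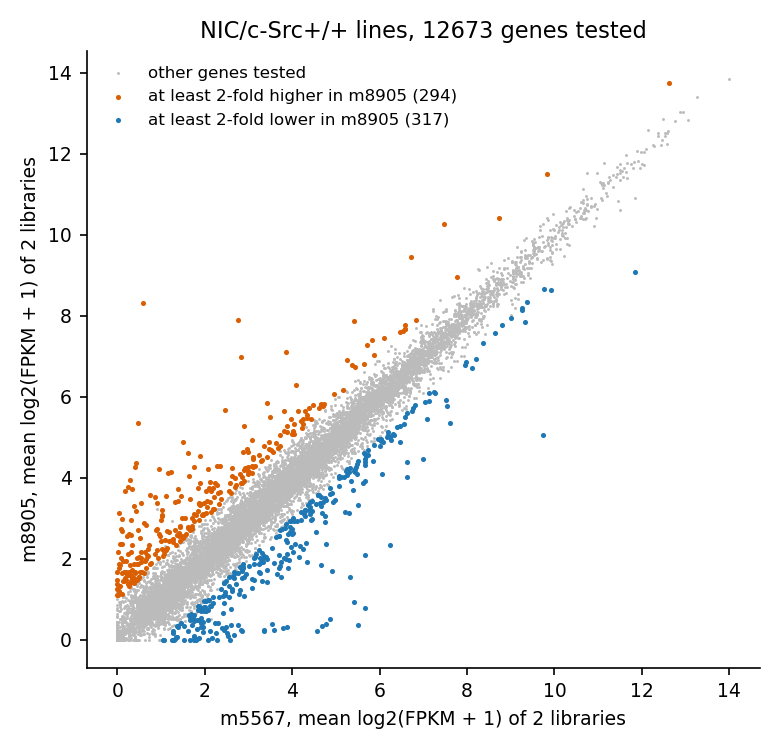
Mean log2(FPKM + 1) of the 2 libraries of m8905 against that of m5567 for 12673 genes. The 294 genes (orange) and 317 genes (blue) past the adjusted p-value threshold and at least 2-fold apart lie on both sides of the diagonal over a wide range of levels, and the remaining genes are grey.

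The genes with 2-fold differences were somewhat less expressed than the rest. Their median level over the 4 lines was 5.72 FPKM for the genes higher in m8905 and 7.41 FPKM for those lower, against 10.7 FPKM for all genes tested. The share of 2-fold genes was 5.76% among the 2221 genes with a mean from 0.5 to 2 FPKM, 6.33% among the 3918 genes from 2 to 10 FPKM, 3.79% among the 5196 genes from 10 to 100 FPKM and 2.84% among the 1338 genes at 100 FPKM or more. The duplicates were also further apart at low levels, with a median absolute log2 difference of 0.14 in m5567 and 0.15 in m8905 in the lowest class, and of 0.06 and 0.07 in the highest. Between the line means it fell less, from 0.23 to 0.17. The share of 2-fold genes also fell with length, from 5.52% among the genes shorter than 1000 bp to 5.16% from 1000 to 2000 bp, 4.43% from 2000 to 4000 bp and 3.09% at 4000 bp or more. The share of all genes past the threshold showed no such steady fall. It ran from 21.2% among the 2593 genes shorter than 1000 bp to 25.8% among the 4960 genes from 1000 to 2000 bp, and was 21.5% among the 1102 genes of 4000 bp or more.

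The genes to be named were the 2 largest differences in each direction among genes past the threshold whose libraries did not overlap between the lines. MGP_FVBNJ_G0033981 had 320.1 and 317.8 FPKM in m8905, 0.954 and 0.167 FPKM in m5567, 0.0799 and 0 FPKM in m4447, and 0.232 and 0.0883 FPKM in m9327. Only the m8905 libraries, with 4307 and 3385 reads, had more than 1 FPKM, and the other libraries had from 0 to 11 reads. Its log2 difference was 7.73 (standard error 0.20, adjusted p = 1.11e-07 from limma). MGP_FVBNJ_G0019681 had 218.6 and 258.2 FPKM in m8905, 5.79 and 5.81 FPKM in m5567, 156.7 and 200.1 FPKM in m4447, and 65.9 and 64.4 FPKM in m9327. Here m5567 was the line apart, with the lowest level of the 4 in both duplicates, and the mean FPKM of m8905 was 41.1-fold higher than that of m5567. Its log2 difference was 5.13 (standard error 0.13, adjusted p = 1.11e-07 from limma).

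In the other direction m8905 was the line apart for both genes. MGP_FVBNJ_G0015814 had 41.3 and 47.1 FPKM in m5567, 0.490 and 0.113 FPKM in m8905, 119.4 and 125.1 FPKM in m4447, and 64.2 and 60.5 FPKM in m9327. Its level in m8905 rested on 22 and 4 reads, and the other 3 lines had at least 1587 reads in each library. The log2 difference was -5.13 (standard error 0.14, adjusted p = 1.18e-07 from limma). MGP_FVBNJ_G0021580 had 52.3 and 47.8 FPKM in m5567, 0.852 and 0.587 FPKM in m8905, 93.2 and 111.2 FPKM in m4447, and 100.3 and 101.9 FPKM in m9327. It was under 1 FPKM in m8905 alone, with 11 and 6 reads, and its log2 difference was -4.89 (standard error 0.12, adjusted p = 1.11e-07 from limma). In these genes the mean levels of the NIC/c-Src+/+ lines were 0.561 ± 0.556 and 319.0 ± 1.62 FPKM, 5.80 ± 0.0166 and 238.4 ± 28.0 FPKM, 44.2 ± 4.14 and 0.301 ± 0.267 FPKM, and 50.1 ± 3.14 and 0.720 ± 0.187 FPKM, for m5567 and m8905 and in the order given (SD, n = 2 libraries each). On the log2(FPKM + 1) scale both c-Src-deficient lines lay nearer to the NIC/c-Src+/+ line of the higher level in 3 of the 4 genes, and in MGP_FVBNJ_G0033981 to that of the lower level. In FPKM itself m9327 was nearer to the lower line in MGP_FVBNJ_G0019681 as well.

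**Figure D3:**
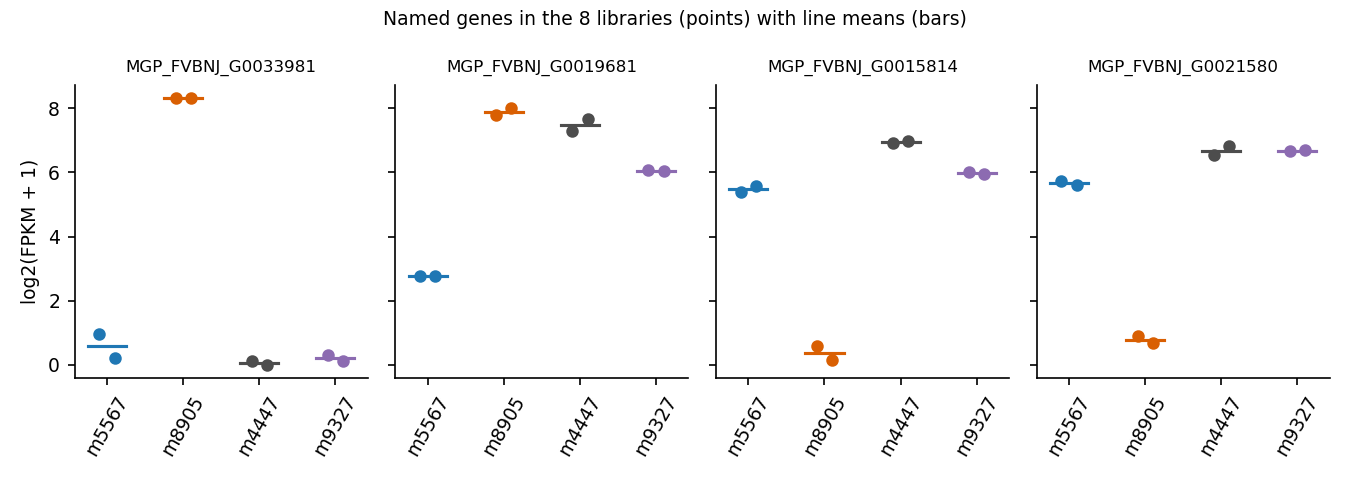
log2(FPKM + 1) of the 4 named genes in each of the 8 libraries (points) with the mean of each line (bars). A single NIC/c-Src+/+ line stands apart from the other 3 lines in each gene, m8905 in MGP_FVBNJ_G0033981, MGP_FVBNJ_G0015814 and MGP_FVBNJ_G0021580, and m5567 in MGP_FVBNJ_G0019681.

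Genes that were expressed in either NIC/c-Src+/+ line and not in the other were counted by level, without a test, as genes with at least 1 FPKM in both libraries of a line and under 0.1 FPKM in both libraries of the other. All 39993 listed genes were searched, without the filter on the mean. There were 20 such genes expressed in m5567 and 21 expressed in m8905, of which 19 and 17 were among the 12673 genes tested. Their levels were modest, with a median of 2.30 FPKM and a highest value of 5.42 FPKM in m5567, and a median of 1.85 FPKM and a highest value of 8.14 FPKM in m8905. The genes absent from m8905 had 3 reads or fewer in each m8905 library in all 20 cases and 0 reads in both in 11, and those absent from m5567 had 3 reads or fewer in each m5567 library in 17 of 21 cases and 0 reads in both in 4. For a gene of 1 kb, 3 reads correspond to between 0.169 and 0.213 FPKM in these libraries, and values at or under that level rest on too few reads to be measured closely. These figures cover counting error only. The levels of the c-Src-deficient lines were mixed across these few genes. Of all 39993 listed genes, 11149 and 11131 reached 1 FPKM in the m4447 libraries, and 11539 and 11403 in the m9327 libraries. Shares of all listed genes by the full rule were not counted, so no trait of the lines is read from the following counts. Of the 20 genes expressed in m5567, 4 were expressed by the same rule in m4447 and 7 in m9327, and 5 and 4 were under 0.1 FPKM in both libraries. Of the 21 genes expressed in m8905, 6 were expressed in m4447 and 9 in m9327, and 9 and 5 were under 0.1 FPKM in both libraries. These counts depended on single libraries. They were 41, 41 and 31 for m5567 without duplicate 1 of m5567, duplicate 2 of m5567 and duplicate 1 of m8905, and 34, 45, 52 and 35 for m8905 without duplicates 1 and 2 of m5567 and duplicates 1 and 2 of m8905, since fewer libraries then had to meet the rule.

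The c-Src-deficient lines were then placed against the 611 genes with 2-fold differences, on the log2(FPKM + 1) scale. In the 294 genes higher in m8905 the mean of m4447 lay below both NIC/c-Src+/+ lines in 120, between them in 113 and above both in 61. The mean of m9327 lay below both in 102, between them in 116 and above both in 76. In the 317 genes lower in m8905, m4447 lay below both in 148, between in 123 and above both in 46, and m9327 lay below both in 93, between in 173 and above both in 51. Over all 611 genes m4447 was between the lines in 38.6% and m9327 in 47.3%, against 15.2% and 20.1% of all genes tested. A wide gap holds more values than a narrow gap, so the larger share among genes chosen for a gap was given by the choice. Outside the range of the NIC/c-Src+/+ lines lay m4447 in 375 of the 611 genes and m9327 in 322, the latter close to an even split. In the genes lower in m8905 m9327 was inside the range in 54.6%, and in 48.3% of those outside the stretches described below.

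**Figure D4:**
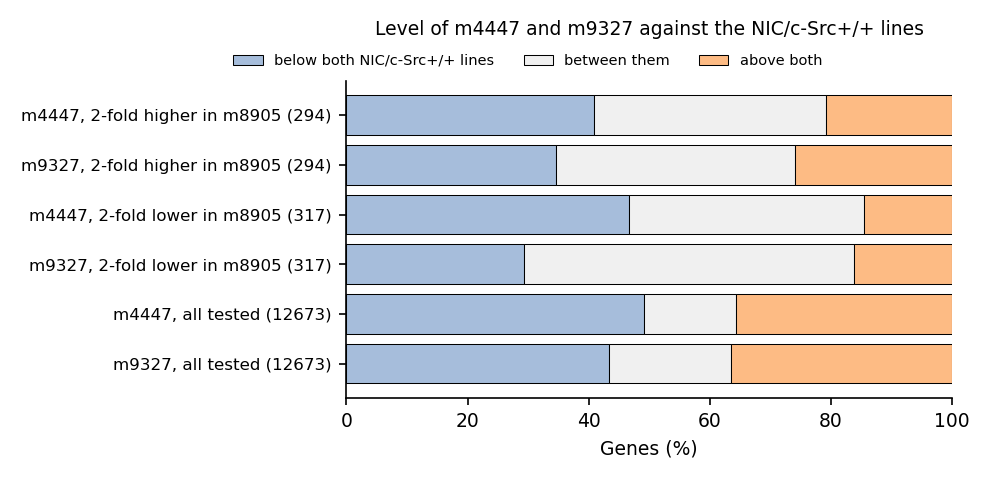
Percentage of genes in which the mean log2(FPKM + 1) of m4447 or m9327 lay below both NIC/c-Src+/+ lines, between them, or above both, for the 294 genes at least 2-fold higher in m8905, the 317 at least 2-fold lower, and all 12673 genes tested. Among the genes that differed, m4447 lay between the lines in 38.4% and 38.8% and m9327 in 39.5% and 54.6%.

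The c-Src-deficient lines did not side with the same NIC/c-Src+/+ line across these genes. In the genes higher in m8905, both were nearer to m5567 in 125 genes, both nearer to m8905 in 81, and in 88 they were split. In the genes lower in m8905, both were nearer to m5567 in 64, both nearer to m8905 in 173, and in 80 they were split. Among all 12673 genes tested, both were nearer to m5567 in 4828, both nearer to m8905 in 4674, and in 3171 they were split. Line m4447 was nearer to the NIC/c-Src+/+ line with the lower level in 60.5% of the genes higher in m8905 and in 72.2% of those lower, against 57.5% of all genes tested. For m9327 these shares were 54.4% and 62.1%, against 54.0%, so that in the genes higher in m8905 its share was that of all genes. Under 1 FPKM in the lower line were 109 of the 294 genes and 94 of the 317. Such genes can pass the filter through the line where they are high, so nearness to the lower line can be given in part by the choice. The genes tested as a whole were not chosen for a gap, so their shares are no exact measure beside these. In the 294 genes higher in m8905 the median was 9.13 FPKM in m8905, 1.95 FPKM in m5567, 2.40 FPKM in m4447 and 4.72 FPKM in m9327. In the 317 genes lower in m8905 it was 13.5 FPKM in m5567, 3.10 FPKM in m8905, 4.57 FPKM in m4447 and 5.37 FPKM in m9327.

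Counted without a test, m5567 exceeded each of the other lines by 2-fold or more in 132 genes and fell 2-fold or more under each of them in 72. For m8905 these counts were 113 and 45, for m9327 233 and 68, and for m4447 331 and 377. The count above the other lines was thus the larger in m5567, m8905 and m9327 and not in m4447. A gene that is low in the other lines can pass the filter through the line where it is high. The log2(FPKM + 1) scale also limits how far a low gene can fall. Larger counts above can thus be given in part by the choice of genes and scale, and no test was made. Genes that differed between the NIC/c-Src+/+ lines often differed between the c-Src-deficient lines as well. The line means compared share no library, but both sets of calls come from the same fit and share its estimate of the spread. Of the 611 genes, 212 were also at least 2-fold apart and past the threshold between m9327 and m4447, which is 34.7% of the 611 and 15.2% of the 1398 genes of the c-Src-deficient pair, while 11% of all genes tested were called there. By level, the share of the genes of the NIC/c-Src+/+ pair that were also called in the other pair was 19.5% from 0.5 to 2 FPKM, 37.5% from 2 to 10 FPKM, 39.1% from 10 to 100 FPKM and 44.7% at 100 FPKM or more, against 12.6%, 14.1%, 8.97% and 7.40% of all genes tested in the same classes. By the line means alone, a count chosen after seeing the data that uses no estimate of the spread, 214 genes were at least 2-fold apart in both pairs, which is 33.9% of the 631 genes of the NIC/c-Src+/+ pair and 15.2% of the 1410 of the other, with 11.1% of all genes tested that far apart in the latter. No test was made of this overlap.

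The differences between the NIC/c-Src+/+ lines were not spread evenly along the order of the identifiers. With the 12673 genes sorted by the number in their identifier, the log2 difference of a gene and that of the next gene correlated at 0.19, that at 2 places at 0.13, at 5 places at 0.10, at 10 places at 0.09, at 50 places at 0.06 and at 500 places at -0.0004 (across 12672 to 12173 pairs of genes, which share their libraries and are not independent replicates). For m9327 minus m4447 the values at 1, 5 and 50 places were 0.14, 0.05 and 0.03. Differences between duplicates gave lower values for the next gene, 0.0013 in m5567, 0.06 in m8905, 0.08 in m4447 and 0.02 in m9327. At greater distance they were not always lower. At 5 places they were 0.04 in m5567, -0.01 in m8905, 0.06 in m4447 and 0.02 in m9327, and at 50 places 0.03, 0.0013, 0.05 and 0.0009, so that the value of 0.06 between the NIC/c-Src+/+ lines at 50 places was close to that between the duplicates of m4447. Among pairs of genes outside the 4 stretches described below, the values between the NIC/c-Src+/+ lines were 0.13 for the next gene, 0.03 at 5 places, 0.03 at 10 places and 0.0074 at 50 places. Whether the order of the identifiers follows the genome is not given in the sources used here.

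To see where neighbouring genes moved together, a running median over 51 genes was taken, and a stretch was defined as at least 20 successive places with a running median of at least 0.3 or at most -0.3 on the log2 scale. This rule was chosen after the values were seen, and its result is given as a description with no test. It gave 4 stretches with 618 genes in all, 4.88% of the genes tested, and it gave 0 stretches between the duplicates of each of the 4 lines. Between m9327 and m4447 it gave 18 stretches with 1182 genes. Differences were smaller in size between duplicates than between the NIC/c-Src+/+ lines, and larger between m9327 and m4447. With a fixed cut these counts therefore follow in part from the size of the differences, and the duplicates are no control of equal spread.

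The most marked stretch, the second in order, held 221 genes at places 7926 to 8146. Of these genes 209 were lower in m8905 and 12 higher, and 185 passed the test as lower and 5 as higher, so that 86.0% were called, against 21.5% of the 12055 genes outside all stretches. The stretch was chosen by the same differences, so its larger share of calls was given by the choice. The median log2 difference was -0.87 (quartiles -1.06 and -0.56). It was between -0.87 and -0.86 in each of the 4 pairs of an m8905 with an m5567 library, while the duplicates differed by medians of -0.01 and -0.0035. The 4 pairs share libraries, and their mean was used to choose the stretch, so their likeness is no separate support. In the 50 genes that end 26 places before it the median was -0.22, 41 were lower in m8905 and 24.0% were called lower, and in the 50 genes that begin 26 places after it the median was -0.12, 35 were lower, and 10.0% were called lower and 10.0% higher, against a median of -0.02 and 10.8% called lower outside all stretches. In the 75 genes of the stretch with at least 10 FPKM in every line, where the pseudocount matters little, the median FPKM ratio of m8905 to m5567 was 0.486 (quartiles 0.453 and 0.562), against 0.996 in 5165 such genes outside the stretches. Here m4447 lay with m8905, with a median ratio to m5567 of 0.504, and m9327 lay in between, with 0.666. Single genes followed the same order, as m4447 was nearer to m8905 in 174 of the 221 genes and m9327 in 133. Among the 12055 genes outside all stretches m4447 was nearer to m8905 in 5963 and m9327 in 5897. Of the 221 genes, 166 also lay in a stretch of the comparison of m9327 with m4447, which is 75.1% of the stretch and 14.0% of the 1182 genes, while 9.33% of all genes tested lay in a stretch of that comparison. The other 3 stretches shared 0 genes with the stretches of that comparison.

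In the first and the third stretch m8905 was the higher line. The first held 217 genes at places 4004 to 4220, with a median log2 difference of 0.36 (quartiles 0.19 and 0.57), and 198 of them were higher in m8905. As a single stretch it depended on the libraries and the window. It split into 2 without duplicate 2 of m5567 or duplicate 2 of m8905, which together still held 200 and 212 of its genes, and into 3 with a window of 31 genes, with 191. Both c-Src-deficient lines lay near m5567 there, with median log2 differences from it of -0.02 for m4447 and -0.07 for m9327, so that m8905 stood apart from the other 3 lines. The shift went on past its upper end, since the 50 genes that begin 26 places after it still had a median of 0.34, against -0.09 in the 50 genes that end 26 places before it. The third held 144 genes at places 8683 to 8826, with a median of 0.48 (quartiles 0.33 and 0.68), and 135 of them were higher in m8905. In this stretch m4447 and m9327 lay between the lines, at 0.16 and 0.19 above m5567 and at -0.32 and -0.31 from m8905. The fourth was short, with 36 genes at places 8949 to 8984 and a median of -0.33, and 28 of its genes were lower in m8905. It was lost without duplicate 1 of m5567, with quantile normalization, with the length trend removed and with a window about double the length.

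**Figure D5:**
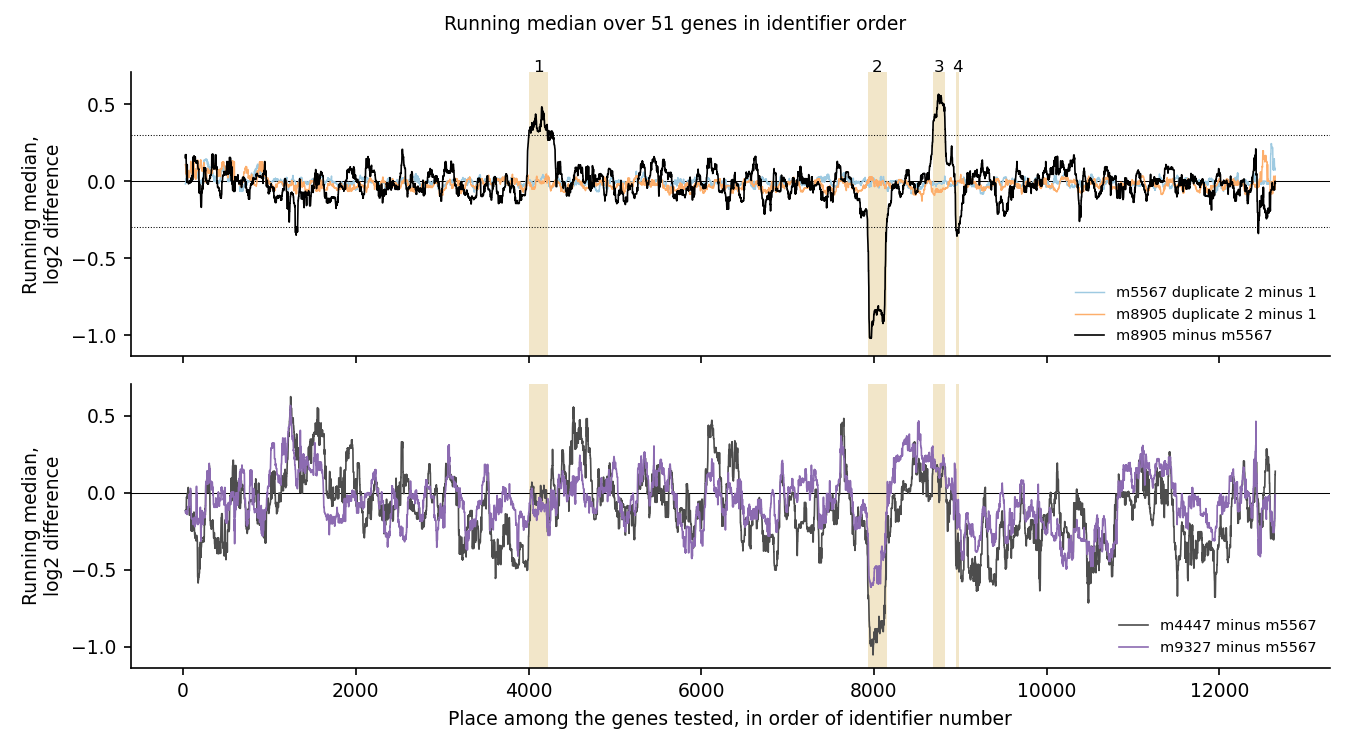
Running median over 51 genes of the log2(FPKM + 1) difference, with the 12673 genes in the order of their identifier numbers. Top, m8905 minus m5567 (black) and the duplicates of each line (light blue and orange), with dotted lines at 0.3 and -0.3; bottom, m4447 and m9327 minus m5567. Shaded bands are the 4 stretches, of which the second, at places 7926 to 8146, falls to a median of -0.87 in m8905.

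The stretches held 14.6% of the genes higher in m8905 and 14.0% of those lower, with 4.88% of the genes tested. They were defined by the same differences that decide the calls, so a larger share of called genes was given by the rule. Among the 2-fold genes the second stretch alone held 74 of the 317 genes lower in m8905 (23.3%), and the stretches together held 25 of the 294 higher genes (8.50%). Outside the stretches 269 genes were at least 2-fold higher in m8905 and 238 lower, so that the direction with the larger count changed. The second stretch was chosen for lower values in m8905, so leaving it out reduces the lower count by construction. Each of the 4 named genes lay outside the stretches. Without the genes of the stretches m4447 was between the NIC/c-Src+/+ lines in 36.1% of the 507 remaining 2-fold genes and m9327 in 42.8%, and of these genes 199 (39.3%) were also called between m9327 and m4447. The number of DNA copies in these lines was not analysed here.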

How the data were processed

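RNA was sequenced from 4 mouse mammary tumor lines in biological duplicate. The authors mapped read pairs to the mouse FVB/N assembly using TopHat2 2.0.12 and Bowtie2 2.2.3, counted reads per gene with HTSeq 0.6.1, and deposited FPKM per gene and library (versions from the submitters' processing notes). The authors tested with DESeq on counts. Whether counting used strand is not given in the sources used here, so overlapping and antisense genes cannot be told apart.

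Deposited FPKM were used without further scaling as log2(FPKM + 1), which understates changes of low genes. The 12673 genes whose mean reached 0.5 FPKM were fitted with limma 3.58.1 in R 4.3.3 (lmFit, eBayes, 4 residual degrees of freedom). Read numbers, lengths and totals were solved from the values as whole numbers in Python 3.11.15 using pandas 2.3.3 and numpy 2.4.6, for all 22673 genes above 0 in at least 1 library. Fit, solving and stretch rule were tested on simulated data, of which no values are given here. The named genes were the 2 largest differences in each direction past the threshold without overlap between libraries. The genes, lists and comparisons were chosen with earlier results of these data known. Marker and pathway lists needed gene names and were not run. Alternatives changed pseudocount, filter, scaling, length trend, variance model, replicate block, counts of libraries and call rules.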

Additional observations from a re-analysis of the deposited data

How the results depend on the processing

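The counts of genes higher and lower in m8905 stayed within 1.5 times of 1514 and 1515 under all other pseudocounts, filters, scalings and models tried, at most 2028 and 1839 with voom on solved reads and median ratio totals. Leaving out each library in turn gave 906 to 1680 higher and 873 to 1677 lower genes, where the lone library left in a line is assumed to vary like the other lines, and 294 to 310 and 316 to 331 genes at least 2-fold apart. The 2-fold counts rose to 481 higher and 482 lower with a pseudocount of 0.1, to 493 and 507 with voom on solved reads, and to 501 and 499 with voom and median ratio totals, and fell to 96 and 96 with limma's treat, which tests against 2-fold. The cause was not tested.

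The share of genes with m4447 or m9327 between the NIC/c-Src+/+ lines was 29.0% and 37.4% over all genes past the threshold and 34.3% and 42.4% with a pseudocount of 0.1, and that of m9327 was 42.8% outside the stretches. Without single libraries the shares ran from 37.0% to 39.8% and from 46.2% to 50.2%. Genes expressed in m5567 and not in m8905, and the reverse, numbered 77 and 102 with an off level under 0.5 FPKM, 0 and 2 with an on level of 5 FPKM, and 30 to 41 and 34 to 52 without single libraries. The genes called between m4447 and m9327 numbered 4858 to 5635 without single libraries.

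The number of stretches was 3 with a window about double the length and 3 with the length trend removed, 6 with a pseudocount of 0.1, with 801 genes, 10 with a window of 31 genes and 10 with a shift of 0.2, the latter with 937 genes, and 4 to 7 without single libraries, the highest without duplicate 2 of m8905, with 606 to 686 genes. The stretch at places 7926 to 8146 and that at 8683 to 8826 kept most of their genes in a single stretch in all 11 settings, that at 4004 to 4220 in 8 and the shortest in 7. The stretch at 4004 to 4220 split into 2 without duplicate 2 of m5567 or duplicate 2 of m8905, with 200 and 212 of its 217 genes still in a stretch, and into 3 with a window of 31 genes, with 191. The shortest was lost without duplicate 1 of m5567, with quantile normalization, with the length trend removed and with the wider window. These settings, the counts outside the stretches, the shares and level counts without single libraries and all alternatives for the genes called between m4447 and m9327 were chosen after seeing the data.

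With the duplicate number as a replicate block, 1386 genes were higher and 1377 lower in m8905, 294 and 319 at least 2-fold, and 5706 differed between m4447 and m9327. Deviations of same-numbered duplicates correlated across genes at 0.06 between m5567 and m8905. Over all pairs of lines this was the highest value, and the lowest was -0.18, between m8905 and m4447. Nothing in the labels ties the numbers together. The 4 named genes kept their direction in all 21 settings. Their highest adjusted p-value from limma was 0.000759, in the fit of only the 4 NIC/c-Src+/+ libraries. They were chosen as the largest differences past the threshold in these same libraries, so this was largely given by the choice and is no separate support.

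Depth limits what can be said of genes with a few reads in a library. Each line is 1 tumor, so the spread between tumors of the genotype rests on a single pair.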
